A study of Mus musculus with 30 samples.

Results

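Liver and kidney were compared as 2 of the 15 adult mouse organs and tissues profiled in the series. The comparison used the 4 arrays whose labels name these organs, liver 1 and 2 and kidney 1 and 2, of 30 arrays in all. Every sample came from male C57BL/6 mice with no genetic change or treatment, and the labels give an age of 28 weeks, whereas the study's methods give another age. The replicates of an organ were taken from different animals, each a piece of whole organ frozen before total RNA was extracted, so that a value averages over every cell type of the piece. Each array held 2 colours: the organ's RNA in Cy3 and, in Cy5, the same reference on all arrays, a pool of RNA from mouse cell lines, with kidney and hepatocyte lines among them, mixed with RNA of 129 ES (embryonic stem) cells. The dyes were never swapped. The values below are log2 ratios of Cy3 to Cy5, normalised within each array, and a difference is the liver mean minus the kidney mean on that scale, so that 1 unit is a doubling of the ratio. In whole organs, fewer cells of a type and less RNA per cell cannot be told apart.

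Both organs clear the blood and run much of the body's intermediary metabolism. Hepatocytes turn ammonia into urea, secrete most plasma proteins and complement regulators, oxidise and conjugate foreign compounds and pass lipids and bile acids into bile. The kidney filters plasma through the glomerular basement membrane and recovers water, salts and vitamins along the tubule with pumps, exchangers and carriers, and it releases renin, the enzyme that starts the angiotensin cascade.

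The replicates lay close together, with a Pearson correlation across probes of 0.984 between the liver arrays and 0.985 between the kidney arrays, against 0.638 to 0.649 between a liver and a kidney array. Of the noncontrol spots, 53.9% and 61.1% were well above background in Cy3 on the liver arrays and 60.5% and 57.6% on the kidney arrays, and no spot of the series was saturated. Both liver arrays lay on a slide shared with heart and both kidney arrays on a slide shared with bladder, scanned on the same day, so the slide and the organ cannot be told apart. Probes were tested if the 2 arrays of some tissue both had Cy3 well above background, a condition met by 21026 of the 25030 probes in the deposited value table, and a probe was called at a Benjamini-Hochberg adjusted p under 0.05 in limma with a difference of at least 1. On this basis 3955 probes were called (18.8% of those tested), 1763 higher in liver (8.38%) and 2192 higher in kidney (10.4%), while the median difference over all tested probes was 0.03. With the slide as a random block, 2584 probes were called, and with the ratios scaled between arrays, 2009. Liver held 44.6% of the calls, but 27.4% (1059 against 2813) when the arrays were centred on their medians without loess, which moved the median of all probes to -0.09. Gene symbols were known for 5049 of the tested probes, of which 747 were called (14.8%), 323 higher in liver (6.40%) and 424 higher in kidney (8.40%). The standard errors pool the spread of all 15 tissues, and the precision is limited by 2 arrays per organ. At every called probe the arrays of the organs did not overlap, so separate arrays, where stated below, are no added support for a call.

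The labels held against the defining markers, which were chosen with earlier results of these data known. Of 9 hepatocyte markers measured, 7 were called higher in liver, against 6.40% of probes with a symbol, and none higher in kidney. Their median difference was 4.47 against 0.03 over all probes. Their summed linear ratios were 1266 to 1358 on the liver arrays and 286 to 335 on the kidney arrays, and most of the kidney sum came from F13b and Spp2, the markers that were not called. All 9 were above background in liver, while 5 of them (Cps1, C4bp, Agxt, Serpinc1 and Nr1i3) were not well above background in kidney. Of 8 nephron markers tested, 7 were called higher in kidney, against 8.40% of probes with a symbol, and none higher in liver. Their median was -3.30, with sums of 13.4 to 14.0 in liver and 159 to 163 in kidney. In liver 4 of them were not well above background, among them the glomerular collagen Col4a3, the anion carrier Slco4c1 and the transcription factor Tcfap2b. The urate transporter Slc22a12 was the tested nephron marker that was not called, at 1.00 and 1.29 in liver and 1.64 and 2.26 in kidney (difference -0.81, SE 0.43, adjusted p 0.188 in limma), and Atp6v1g3 was not above background in either organ and was not tested.

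Promoters of 4 called genes, picked after their values were seen, are printed to show the sequence at the start of genes that differed between the organs. Each is the 250 bases before the gene's start in RefSeq (GRCm38.p6), read 5′ to 3′ on the gene's strand. C4bp and the nuclear receptor gene Nr5a2 were higher in liver, and Pkhd1 and Ren1 were higher in kidney. Capitals mark GTTAAT followed by any base and ATT, the core of the sequence bound by HNF1 factors, which act in hepatocytes and in tubule cells alike, and in Ren1 the TATA box TATAAA.
C4bp, liver, chr1:130661619-130661868, minus strand: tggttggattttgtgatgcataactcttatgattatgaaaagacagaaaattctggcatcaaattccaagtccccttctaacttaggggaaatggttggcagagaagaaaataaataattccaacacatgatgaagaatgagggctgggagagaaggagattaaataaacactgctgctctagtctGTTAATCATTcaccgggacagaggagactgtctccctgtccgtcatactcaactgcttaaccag
Nr5a2, liver, chr1:136960449-136960698, minus strand: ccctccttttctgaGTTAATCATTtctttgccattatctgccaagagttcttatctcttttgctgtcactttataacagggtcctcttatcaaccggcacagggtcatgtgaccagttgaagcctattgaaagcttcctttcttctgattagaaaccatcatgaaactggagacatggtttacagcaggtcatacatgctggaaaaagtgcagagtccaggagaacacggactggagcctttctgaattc
Pkhd1, kidney, chr1:20618058-20618307, minus strand: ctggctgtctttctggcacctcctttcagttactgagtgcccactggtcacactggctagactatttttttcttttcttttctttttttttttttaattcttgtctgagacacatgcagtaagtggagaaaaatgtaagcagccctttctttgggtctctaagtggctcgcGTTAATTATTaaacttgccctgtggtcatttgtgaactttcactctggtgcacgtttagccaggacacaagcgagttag
Ren1, kidney, chr1:133350424-133350673, plus strand: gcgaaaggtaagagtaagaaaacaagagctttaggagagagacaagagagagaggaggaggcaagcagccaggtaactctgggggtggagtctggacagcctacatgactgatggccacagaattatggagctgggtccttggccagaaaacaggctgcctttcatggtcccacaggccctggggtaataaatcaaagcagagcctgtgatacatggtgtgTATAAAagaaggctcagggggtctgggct
The HNF1 letters began 64 bases before the start in C4bp, 236 in Nr5a2 and 79 in Pkhd1, and the TATA box 29 bases before the start of Ren1. Searched on both strands, the HNF1 letters occurred in 3 of 304 promoters of named genes higher in liver (0.987%; C4bp, Nr5a2 and Cfhr3) and in 3 of 401 of those higher in kidney (0.748%; Pkhd1, Eva1b and Smim6), against 0.371% of all 32851 promoters and 0.347% of the 4609 of tested named genes. The TATA box occurred in 8.88% and 10.2% of the promoters higher in liver and in kidney, against 7.18% of tested named genes and 12.4% of all. The core of the C/EBP motif, TTGCNNAA, occurred in 11.2% and 10.2%, against 8.20% and 9.56%. The motifs were also picked after the values were seen, and a match in such a window is a description of its letters.

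The named genes higher in liver are given first. Cps1, carbamoyl phosphate synthetase and the entry point of the urea cycle, had log2 ratios of 9.06 and 8.87 in liver and -0.36 and -0.60 in kidney. The organs did not overlap, and both kidney arrays were near the level of the reference. The difference was 9.44 (SE 0.76, adjusted p 1.14e-08 in limma). Because Cps1 was not well above background in kidney, the fold has a lower bound only: its Cy3 signal was at least 1019-fold higher in liver. Such bounds set the Cy3 mean of the bright organ against that of the dim one, in which each array counted with the gene's own signal or, where that was lower, with the dimmest signal called above background. They were taken after normalisation of the single channels and are open to dye bias since no array had its dyes swapped. For genes in this state the fitted difference is that of the measured ratios and gives no exact fold. The small intestine was the other tissue in which Cps1 was high, with a mean of 6.83.

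The aldehyde oxidase Aox3, which oxidises aldehydes and nitrogen heterocycles of foreign origin, read 9.33 and 9.28 in liver and 0.90 and 0.87 in kidney. It was above background on all 4 arrays, which lay in 2 tight pairs, and the ratio was 343-fold higher in liver (difference 8.42, SE 0.29, adjusted p 4.39e-14 in limma). C4bp, the plasma protein that binds complement C4b, stood at 7.14 and 7.24 in liver and -0.66 and -0.58 in kidney. It was not well above background in kidney, at least 1541-fold dimmer in Cy3, and its difference of 7.81 had a large SE of 1.15 (adjusted p 2.82e-05 in limma), and the fat arrays, which enter the pooled spread, read 6.50 and -0.18 for this gene. The sulfotransferase gene 2810007J24Rik (now Sult2a8) measured 7.48 and 7.77 in liver against 0.17 and -0.02 in kidney, a difference of 7.55, and the next tissue was small intestine at 1.26.

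Agxt, the peroxisomal aminotransferase that detoxifies glyoxylate, gave 6.34 and 6.44 in liver and -0.02 and 0.01 in kidney, where it was not well above background. The measured ratios differed by 6.40 (SE 0.20, adjusted p 8.50e-15 in limma). In Cy3 alone the signal was at least 1726-fold higher in liver, more than the ratios give because the Cy5 signal at the same spots also differed, by 4.36 log2 units toward liver, although both organs met the same reference RNA. Such a shift of Cy5 toward the higher organ by more than 1 unit was seen at 13 of the 30 genes named for their size, 8 of 15 toward liver and 5 of 15 toward kidney, against 240 (1.14%) and 191 (0.908%) of all tested probes toward liver and toward kidney. The ratio difference was therefore smaller than the Cy3 difference at these genes, and the source of the Cy5 shift was not tested. Other genes with such a shift were 1300017J02Rik, an inhibitor of carbonic anhydrase (4.55 and 4.75 against -0.60 and -0.55, Cy5 shift 5.90), Serpinc1, which encodes antithrombin (5.25 and 5.36 against 0.18 and 0.32, Cy5 shift 2.61), and 1100001G20Rik, now Wfdc21 (7.34 and 7.33 against -0.03 and 0.01, Cy5 shift 2.59). None of these 3 was well above background in kidney, and their Cy3 signals were at least 2233-fold, 202-fold and 977-fold higher in liver. Other Cy5 differences, liver minus kidney, were 2.78 at C4bp, -2.38 at 1810022C23Rik, -2.46 at Vil1 and -2.02 at Tcfap2b. The Cy3 bounds of these genes likewise exceed what the ratios give.

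Among the other named genes higher in liver, several stood nearly as high in another tissue. Prg4, the lubricating proteoglycan of joints, read 7.35 and 7.07 against -0.20 and -0.08 (not well above background in kidney, at least 157-fold in Cy3), with a bone mean of 6.24. Aox1 read 4.64 and 4.83 against -1.56 and -1.96, and 7 of the 13 other tissues lay above the midpoint of the 2 organs. Rgs16, a regulator of G protein signalling, read 4.27 and 4.52 against -1.80 and -1.98 and was highest in liver. Igfbp2, a carrier of insulin-like growth factors, read 2.17 and 2.12 against -2.75 and -2.87, below its bladder mean of 2.85. Abcb4, which moves phospholipid into bile, read 3.51 and 3.56 against -1.36 and -1.46, with muscle next at 3.24. None of these pairs overlapped between the organs, as their selection required. The macrophage receptor Marco was the named gene whose liver arrays disagreed most, at 6.37 and 4.35, and both still exceeded the kidney values of -0.39 and -0.33, which were not well above background (at least 69.4-fold in Cy3). Of probes without a symbol, Z00026161-1 read 10.10 and 9.89 in liver and -1.92 and -1.98 in kidney. It and Z00031175-1 were not well above background in kidney, and their Cy3 signals were at least 4565-fold and 2266-fold higher in liver.

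**Figure D1:**
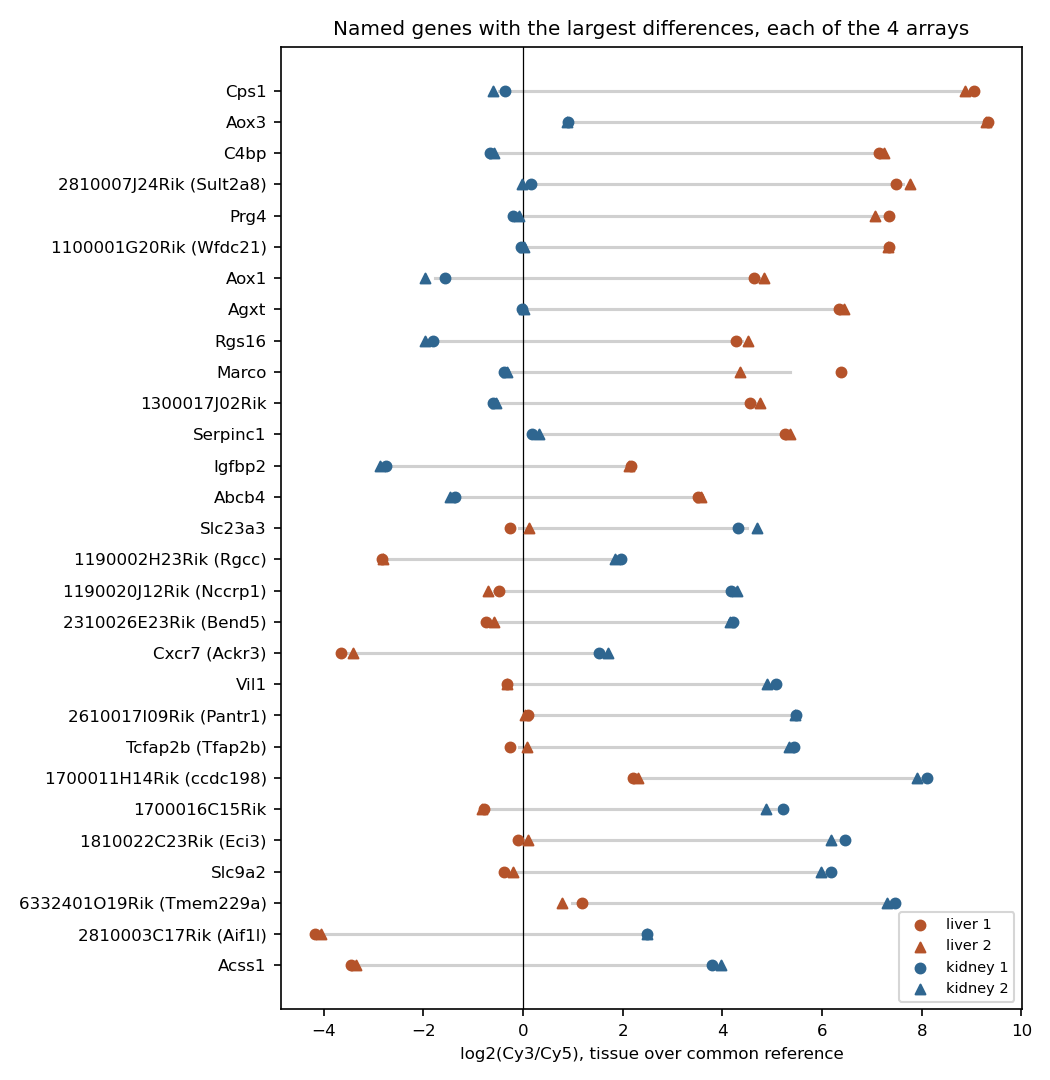
Log2 ratio of Cy3 (organ) to Cy5 (reference) on each of the 2 liver and 2 kidney arrays for 29 of the 30 named genes with the largest called differences, 14 toward liver and 15 toward kidney. The points of an organ nearly coincide except for Marco, at 6.37 and 4.35 in liver, and none of the genes drawn overlaps between the organs, as the selection required.

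Toward kidney, the largest named difference was of a mitochondrial enzyme. Acss1, which activates acetate to acetyl-CoA in mitochondria, read -3.45 and -3.35 in liver and 3.8 and 3.98 in kidney. It was above background on all 4 arrays, which did not overlap, and the kidney ratio was 156-fold higher (difference -7.29, SE 0.55, adjusted p 3.83e-09 in limma). Kidney was not its highest tissue: heart stood at 4.94, and 12 of the 13 other tissues were above the midpoint of the organs, so that liver was the tissue set apart. The same held for 1190002H23Rik (now Rgcc), a cell cycle regulator, at -2.82 and -2.82 in liver and 1.97 and 1.85 in kidney, where all 13 other tissues were above the midpoint. Cxcr7 (now Ackr3), a scavenging receptor for the chemokine CXCL12, read -3.65 and -3.41 against 1.53 and 1.71, with 11 of 13 above.

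Other genes were high in kidney and in few tissues besides. 2810003C17Rik (now Aif1l), an actin-binding protein, was at -4.18 and -4.05 in liver and 2.48 and 2.50 in kidney, the highest of all tissues, a difference of -6.61 (SE 0.30, adjusted p 2.21e-12 in limma). 6332401O19Rik (now Tmem229a) was at 1.18 and 0.79 against 7.47 and 7.31, ahead of brain cortex at 6.60. 1700016C15Rik was at -0.78 and -0.83, not well above background, against 5.22 and 4.87 (at least 86.5-fold in Cy3). Each of these was highest in kidney, and by their selection the organs did not overlap. 1810022C23Rik (now Eci3), a peroxisomal enoyl-CoA isomerase of fatty acid oxidation, was not well above background in liver (-0.11 and 0.10) and stood at 6.46 and 6.17 in kidney, a Cy3 signal at least 417-fold higher. Vil1, which encodes the microvillus protein villin of brush borders, was at -0.33 and -0.33 in liver and 5.07 and 4.90 in kidney, at least 219-fold higher in Cy3, and was higher still in small intestine (5.46).

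The transporter gene Slc9a2, a sodium and proton exchanger, read -0.38 and -0.21 in liver, not well above background, and 6.18 and 5.98 in kidney. Kidney was below 4 other tissues, with small intestine highest at 6.84, and the Cy3 bound was at least 127-fold (difference -6.37, SE 0.91, adjusted p 1.94e-05 in limma). Tcfap2b (now Tfap2b), a transcription factor of the distal nephron, read -0.26 and 0.09, not well above background, against 5.43 and 5.34 (difference -5.47, SE 0.91, adjusted p 0.000102 in limma; at least 180-fold in Cy3). Slc23a3, of the ascorbate transporter family, read -0.27 and 0.12 against 4.31 and 4.69, with stomach at 4.78. In all of these the organs were separate, as the selection required. The gene with the widest error was 1700011H14Rik, at 2.20 and 2.31 in liver and 8.11 and 7.91 in kidney, with an SE of 1.31 (difference -5.76, adjusted p 0.00217 in limma). Its kidney arrays lay close together, whereas the fat arrays that enter the pooled spread read 7.04 and 0.10. 1190020J12Rik (now Nccrp1, difference -4.83), the long noncoding RNA 2610017I09Rik (now Pantr1) and 2310026E23Rik (now Bend5) were also among the 15. Pantr1 and Bend5 were not well above background in liver, and their Cy3 signals were at least 46.1-fold and 25.3-fold higher in kidney. Of probes without a symbol, Z00026066-1 read -3.89 and -3.90 against 6.29 and 6.06, and Z00023572-1 read -0.00 and 0.28, not well above background, against 10.05 and 9.80 (at least 1447-fold in Cy3).

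Ammonia handling and plasma proteins were on the liver side. Of the 4 measured genes for the urea cycle and glutamine, 3 were called higher in liver, against 6.40% of probes with a symbol, and none higher in kidney (median 2.51). Besides Cps1, these were ornithine transcarbamylase Otc (3.64 and 3.58 against 0.18 and -0.03; difference 3.54) and glutamine synthetase Glul (3.10 and 3.10 against 1.61 and 1.60; difference 1.49, adjusted p 0.0145 in limma). The call of Glul was lost under 8 of 21 other settings, among them the slide as a random block and leaving out any 1 of the 4 arrays. Of 11 secreted plasma proteins, 9 were called higher in liver (81.8%, against 6.40% of probes with a symbol) and none higher in kidney (median 3.17), and 5 with the ratios scaled between arrays. Fibronectin Fn1 read 0.02 and -0.29 in liver and -4.71 and -4.67 in kidney, a difference of 4.56, and clotting factor F5 read 5.77 and 5.83 against 2.84 and 2.42, a difference of 3.17. Apoa2 of high-density lipoprotein and Cfhr3 of the complement system differed by 2.48 and 2.28. The difference of Apoa2 was 8.08 in Cy3 alone, and its call was lost with the slide as a random block and with the ratios scaled between arrays.

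F13b and Spp2 were exceptions in size. F13b, the carrier subunit of clotting factor XIII, had ratios of 7.95 and 7.64 in liver and 6.68 and 7.27 in kidney, and Spp2, a secreted phosphoprotein of bone and plasma, had 8.07 and 8.07 against 7.45 and 7.43. The organs did not overlap for either gene, and the adjusted p was 0.000829 and 0.00647 in limma, but the differences of 0.82 and 0.63 were below 1. They turned to -0.17 and -0.39 with the ratios scaled between arrays, and that of Spp2 to -0.21 in Cy3 alone, so their direction depends on the scaling. In both genes the lowest liver or kidney array lay far above the highest array of the other tissues, by 6.48 and 6.34 units.

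Enzymes that handle foreign compounds and retinoids went both ways. Of 26 tested, 9 were called higher in liver and 4 higher in kidney, against 6.40% and 8.40% of probes with a symbol, and the median was 0.06. Over the other scalings and backgrounds the median ran from -0.16 in Cy3 alone to 0.55 on the scanner's processed signals, and with the ratios scaled between arrays 3 were called higher in liver and 1 higher in kidney. Besides Aox3, Sult2a8 and Aox1, the receptor Nr1i3 (CAR), which senses drugs and bilirubin in hepatocytes, read 4.54 and 4.70 in liver and 0.12 and 0.18 in kidney, where it was not well above background (difference 4.47, at least 60.2-fold in Cy3). The glutathione transferase Gsta3 was above the reference in both organs, at 7.31 and 7.40 against 4.04 and 4.32. On the kidney side were Mgst3 (-1.75), Fmo4 (-1.65), Fmo2 (-1.55) and Cbr2 (-1.24), the last of which lost its call under 7 of 21 other settings. Of 4 aldehyde oxidases, Aox3 and Aox1 were higher in liver, Aox4 differed by -0.21 (SE 0.27), and Aox3l1 was not above background in either organ. Of 4 flavin monooxygenases tested, Fmo4 read 0.97 and 0.82 in liver and 2.43 and 2.67 in kidney, Fmo2 read 2.47 and 3.03 against 4.46 and 4.15, and neither overlapped, while Fmo1 (0.54, SE 0.31) was not called. The call of Fmo2 was lost under 8 of 21 other settings, and its difference was 0.23 on the scanner's processed signals. Fmo1 turned to -1.80 in Cy3 alone, with an adjusted p of 0.00237 in limma. Near-identical family members may share a probe's signal, so values within a family are uncertain to that extent.

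Of 29 genes of fatty acid oxidation, 4 were called higher in liver and 4 higher in kidney (27.6% in all, against 14.8% of probes with a symbol; median -0.05). These counts were 3 and 6 under median centring (median -0.47) and in Cy3 alone, and 1 and 4 with the ratios scaled between arrays (median -0.35). Acsl1, which activates long-chain fatty acids, read 5.31 and 5.16 in liver and 2.39 and 2.47 in kidney (difference 2.80), and the thiolase Acaa2 read 4.37 and 4.47 against 2.45 and 2.23 (2.08). Hadha differed by 1.11, and Acsf2, not well above background in kidney, was at least 2.10-fold higher in liver in Cy3. Besides Eci3, the acyl-CoA thioesterase Acot6 (-0.26 and -0.30, not well above background, against 1.81 and 2.48), the peroxisomal oxidase Acox3 (0.50 and 0.25 against 2.11 and 1.95) and Acot2 (difference -1.05) were called higher in kidney. As at every called probe, no organ overlapped the other for these genes. Of 9 acyl-CoA thioesterases measured, Acot9 had the largest difference, -3.42, and Acot12 was far above the reference in both organs, at 7.59 and 6.81 against 7.22 and 7.60. Of 10 acyl-CoA dehydrogenases, 9330129D05Rik (now Acad12) was the member called (difference -2.17, higher in kidney), and of 3 thiolases of the Acaa family Acaa2 was.

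Amino acid breakdown also divided, with 4 of 18 called higher in liver, 3 higher in kidney (38.9% in all, against 14.8% of probes with a symbol) and a median of 0.17, which turned negative in Cy3 alone, under median centring and under scaling of the arrays. Scaling left 2 calls on each side. After Agxt, the liver members were Ahcy, which hydrolyses S-adenosylhomocysteine (4.18 and 4.40 against 2.65 and 2.44), Adi1 of methionine salvage (difference 1.57) and Afmid of tryptophan breakdown (1.02). The kidney members were Bckdk, the kinase that inhibits branched-chain ketoacid oxidation (-1.11 and -0.89 against 1.12 and 0.83), Acmsd, which diverts tryptophan from NAD synthesis (0.36 and 0.30, not well above background, against 1.28 and 2.05), and Mccc1 of leucine breakdown (difference -1.14, adjusted p 0.0258 in limma). The organs were separate for each of these, as at every called probe. The calls of Mccc1 and Afmid were lost under 6 and 5 of 21 other settings, and that of Acmsd under 4 of 20.

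Lipid and sterol synthesis had 7 of 19 members called higher in liver and 2 higher in kidney (47.4% in all, against 14.8% of probes with a symbol; median 0.42). These counts were 4 and 3 under median centring (median -0.10) and 1 and 0 with the ratios scaled between arrays. The elongase Elovl5 read 2.86 and 3.65 in liver and 0.26 and -0.18 in kidney (difference 3.22), and the cholesterol exporter Abca1 read 3.06 and 2.56 against -0.41 and 0.03 (difference 3.0). Agpat2 of glycerolipid synthesis and Hsd17b7 of sterol synthesis followed at 2.37 and 1.93. Higher in kidney were Soat1, which esterifies cholesterol (difference -1.62), and the monoacylglycerol acyltransferase Mogat1 (1.67 and 2.46 against 4.25 and 4.08), whose difference of -2.10 became 0.02 on the scanner's processed signals and in the deposited value table.

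Of 10 bile and organic anion transporters, Abcb4 was called higher in liver and 4 were called higher in kidney, against 6.40% and 8.40% of probes with a symbol (median -1.16). With the ratios scaled between arrays, 2 were called, both higher in kidney. Slco4c1, an organic anion carrier of the proximal tubule, read -0.80 and -1.13 in liver, not well above background, and 2.72 and 2.82 in kidney, at least 12.7-fold higher in Cy3. The exporter Abcc4 read -3.36 and -3.61 against -0.29 and -0.06, and Abcc5 and Abcc1 differed by -1.62 and -1.52. Abcg2, an exporter of urate and drugs, read 2.03 and 1.82 against 3.53 and 3.84 without overlap, but with an SE of 0.91 it was not called (adjusted p 0.172 in limma).

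Of 8 liver regulators, 4 were called higher in liver, against 6.40% of probes with a symbol, and none higher in kidney (median 0.88), and 2 were called without kidney replicate 2, under median centring, with the ratios scaled between arrays and with the slide as a random block. Next to Nr1i3, the nuclear receptor Nr5a2 of bile acid and cholesterol control read 1.1 and 1.24 in liver and -1.31 and -1.44 in kidney, where it was not well above background (difference 2.54, at least 4.76-fold in Cy3). Its promoter is among those printed above. Insig2, which holds back sterol synthesis, and the stress sensor Atf6 differed by 1.5 and 1.08, and the call of Insig2 was lost under 8 of 21 other settings, leaving out any 1 of the 4 arrays among them. The secretory pathway had 7 of 43 members called higher in liver (16.3%, against 6.40% of probes with a symbol) and none higher in kidney. These counts were 6 and 2 on processed signals and 3 and 2 under median centring, which turned the median of 0.34 to -0.14, and the slide block left 4 calls. Sec16b, a scaffold of endoplasmic reticulum exit sites, read 4.07 and 4.12 against 0.42 and -0.10 (difference 3.94), far beyond the chaperone Pdia4 (1.77), the cargo receptor Lman1 (1.66) and the translocon protein Tram2 (1.42).

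**Figure D2:**
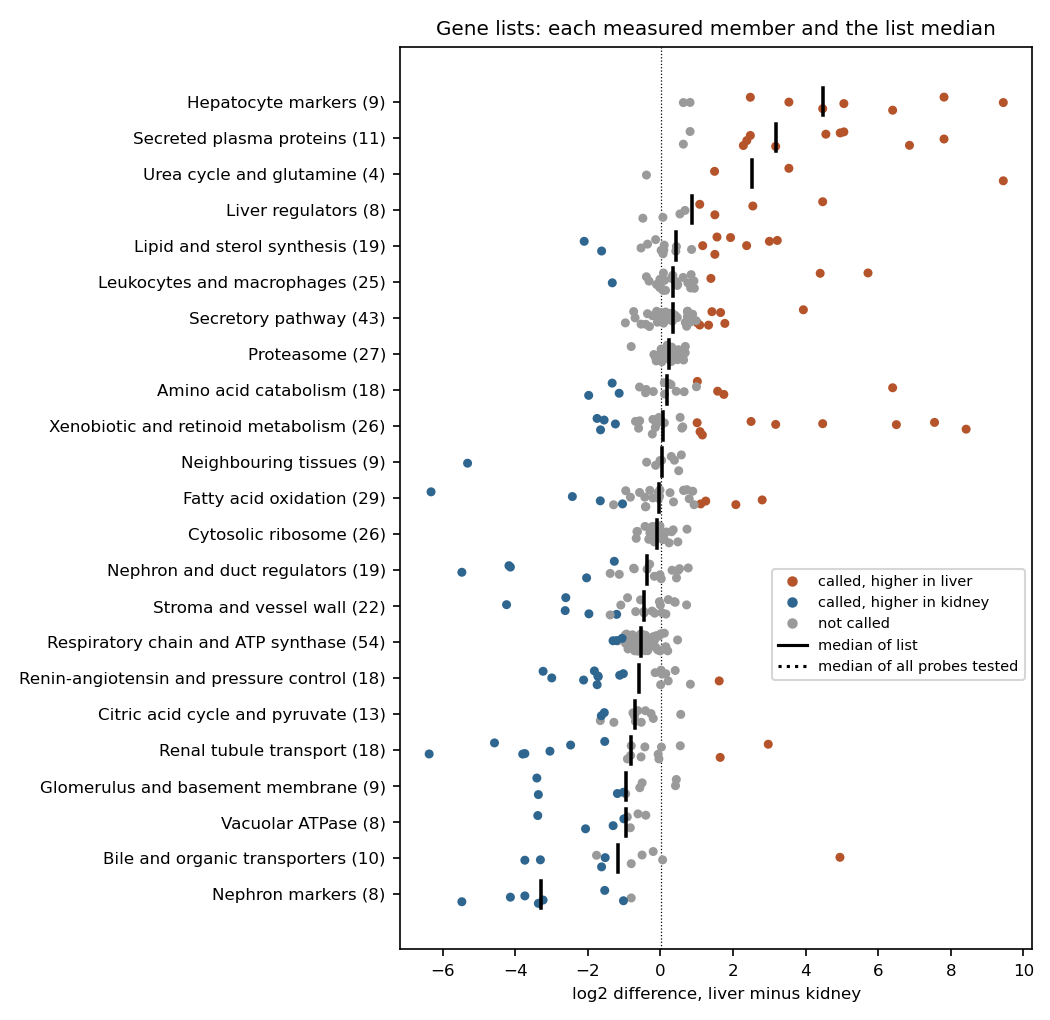
Difference in log2 ratio, liver minus kidney, of each tested member of the 23 gene lists, with the number tested in parentheses, the list median as a bar and the median over all tested probes (0.03) as a dotted line. List medians run from 4.47 for hepatocyte markers to -3.30 for nephron markers, and several metabolic lists near 0 hold called members on both sides.

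On the kidney side, tubule transport had 7 of 18 members called higher in kidney and 2 higher in liver, against 8.40% and 6.40% of probes with a symbol (median -0.81). These counts were 6 and 0 with the ratios scaled between arrays and 9 and 1 on processed signals and in Cy3 alone. After Slc9a2 and Slc23a3, Atp1b1, the beta subunit of the sodium pump, read 1.96 and 2.74 in liver and 6.44 and 5.85 in kidney (difference -3.79). The monocarboxylate carrier family member Slc16a14 and the thiamine transporter Slc19a3 were not well above background in liver and read 3.45 and 2.61, and 2.28 and 2.42, in kidney. The water channel Aqp1 read 1.46 and 1.07 against 2.85 and 2.75. Called the other way were the second thiamine transporter, Slc19a2 (2.46 and 2.37 against -0.50 and -0.61; difference 2.97), and ferroportin Slc40a1, which exports iron (4.05 and 3.47 against 2.05 and 2.18; 1.65), whose call was lost under 10 of 21 other settings, leaving out any 1 of the 4 arrays among them. The thiamine transporters thus differed in opposite directions, and neither overlapped between the organs.

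Renin and blood pressure control had 9 of 18 tested members called higher in kidney and 1 higher in liver, against 8.40% and 6.40% of probes with a symbol (median -0.58). With the slide as a random block 6 calls were left. Renin itself, Ren1, read 0.17 and 0.39 in liver and 3.29 and 3.74 in kidney, a difference of -3.23 (SE 0.16, adjusted p 1.15e-11 in limma). Kidney was its highest tissue, and it was well above background on 1 of the 2 liver arrays. Agtrap, a partner of the angiotensin receptor, read -0.58 and -0.84 against 2.37 and 2.19 (difference -2.99), and angiotensin-converting enzyme Ace read 0.56 and 0.53 against 2.70 and 2.62 (-2.12). Rgs2, which damps vasoconstrictor signals, and the adrenergic receptors Adra2a, Adrb1 and Adra2b differed by -1.82, -1.74, -1.72 and -1.02. The adenosine receptor Adora1 was the member called higher in liver, at 3.85 and 4.36 against 2.61 and 2.36, and it was not called on processed signals, in the value table, under median centring or with the ratios scaled between arrays. The angiotensin receptor Agtr1a was also above the reference in both, at 5.94 and 5.62 against 4.78 and 5.14, and its difference of 0.82 (SE 0.50) was not called.

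Of 9 glomerular and basement membrane genes, 4 were called higher in kidney (44.4%, against 8.40% of probes with a symbol) and none higher in liver (median -0.96), and 2 with the ratios scaled between arrays. Of the paired collagen chains, Col4a4 read -1.43 and -1.47 against 2.00 and 1.91 (difference -3.41). Col4a3 read 0.20 and -0.06 in liver, where it was not well above background, and 3.64 and 3.23 in kidney, at least 30.5-fold higher in Cy3. Agrin, Agrn, differed by -1.19. Of 19 nephron and duct regulators tested, 5 were called higher in kidney (26.3%, against 8.40% of probes with a symbol) and none higher in liver (median -0.37), and 2 with the ratios scaled between arrays. Tcfcp2l1, a collecting duct factor, read -1.87 and -1.65 against 2.61 and 2.22 (difference -4.17), and Pkhd1, the cilium protein of recessive polycystic disease, read 2.21 and 2.07 against 6.31 and 6.24 (-4.13, SE 0.70). Pkhd1 was thus also above the reference in liver. Epha4 and Sox13 differed by -2.03 and -1.27.

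All 8 tested subunits of the vacuolar ATPase, which acidifies lysosomes and the urine, had negative differences (median -0.96), and 4 were called, against 8.40% of probes with a symbol. Atp6v1a read -1.22 and -1.79 in liver and 1.63 and 2.12 in kidney (difference -3.38), Atp6v0e differed by -2.06, Atp6v1f by -1.30 and Atp6v0c by -1.01. Of 54 nuclear-encoded subunits of the respiratory chain and ATP synthase, 49 had negative differences, and the median of the list was -0.53. Called higher in kidney were 3 (5.56%, against 8.40% of probes with a symbol), all of ATP synthase: Atp5b (-1.31), Atp5a1 (-1.21) and Atp5c1 (-1.06). Without kidney replicate 2, 5 were called. The median ranged from -0.44 to -0.77 over the other scalings of the arrays. Of 13 citric acid cycle genes, 12 had negative differences (median -0.69). Called higher in kidney were 2 genes (15.4%, against 8.40% of probes with a symbol), among them Idh3g (-0.22 and -0.26 against 1.37 and 1.25). Median centring called 10 respiratory chain and 4 citric acid cycle genes. With the ratios scaled between arrays, limma called 0 genes of either list, and 1 respiratory chain and 0 citric acid cycle genes had an unadjusted p under 0.05. Differences were negative for 17 of 26 ribosomal genes and positive for 23 of 27 proteasome genes. limma called none of either list, although 2 ribosomal and 8 proteasome genes had an unadjusted p under 0.05, with medians of -0.10 and 0.24 whose signs turned under scaling (0.15) and under median centring (-0.07) respectively. Without kidney replicate 1, 2 ribosomal genes were called.

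Markers of other cells were read beside these lists. Of 25 leukocyte and macrophage markers, 4 were called (16%, near the 14.8% of probes with a symbol): 3 were called higher in liver, Marco, Zap70 (2.79 and 2.50 against -1.72 and -1.79) and Mpeg1 (difference 1.39), and Cd55 was called higher in kidney (-1.33). Of these 4 calls, those of Mpeg1 and Cd55 were lost under 5 and 6 of 21 other settings. The pan-leukocyte gene Ptprc read -1.71 and -2.05 in liver and -2.16 and -1.87 in kidney and was not called, and the T cell genes Cd28 and Cd247 were not above background in either organ. Summed ratios of the list were 49.4 and 115 on the liver arrays, a spread that lay mostly in Marco, and 23.2 and 25.04 on the kidney arrays. Of 22 stroma and vessel wall markers, 5 were called higher in kidney (22.7%, against 8.40% of probes with a symbol). None was called higher in liver. Scaling the ratios between arrays left 1 of these calls, and the slide block left 3. The largest differences were those of Igfbp5 (-0.43 and 0.83 against 4.54 and 4.34), Tns1 (-2.62) and Aebp1 (-2.61). Sums over the list were 72.2 to 77.8 in liver and 110 to 116 in kidney. The fibroblast collagen Col3a1 read -3.63 and -3.14 against -3.09 and -3.62. Of 9 markers of gut and muscle, Vil1 was called higher in kidney and no other member was (11.1%, against 8.40% of probes with a symbol). Tubule brush borders also carry Vil1. The intestinal enzyme gene Alpi and the muscle gene Myl1 were not above background in either organ, and the list summed to 6.60 to 6.98 in liver and 35.2 to 39.7 in kidney, where Vil1 made up most of it. The part of these cells in the differences above was not tested.

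The organs were next placed among all 15 tissues by mean ratio. Of the 1763 probes higher in liver, liver was the highest of the 15 tissues at 1016 (57.6%; 10.6% of all tested probes), whereas of the 2192 higher in kidney, kidney was the highest at 562 (25.6%; 5.08% of all). Liver was the lowest of all tissues at 762 of the probes higher in kidney (34.8%; 10.6% of all), and kidney was the lowest at 192 of those higher in liver (10.9%; 5.34% of all). The median number of other tissues above the midpoint of the organs was 2 of 13 for probes higher in liver and 6 of 13 for probes higher in kidney. No other tissue was above it at 465 (26.4%) and 209 (9.53%), and all 13 were above it at 18 (1.02%) and 140 (6.39%). Where liver was not highest, small intestine (109 probes) and muscle (79) most often were, and where kidney was not, brain cortex (250) and lung (202). Over the other scalings of the arrays, liver was highest at 51.5% to 64.8% of its probes and kidney at 21.1% to 38.3% of its own. The median size of a called difference was 1.86 toward liver and 1.88 toward kidney, and differences of 5 or more numbered 156 toward liver and 119 toward kidney. These shares describe the called probes and were not tested against each other. A call itself favours the higher organ being first and the lower one last, a condition that the shares of all probes lack.

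**Figure D3:**
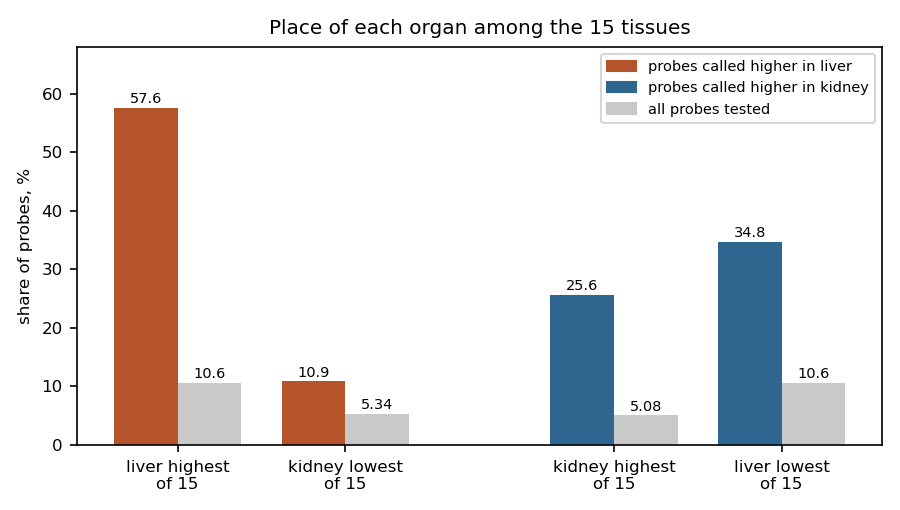
Share of probes, in percent, at which an organ was the highest or the lowest of the 15 tissues by mean log2 ratio, for the 1763 probes called higher in liver, the 2192 called higher in kidney and all 21026 tested (grey). Liver is highest at 57.6% of its probes and kidney at 25.6% of its own. Liver is lowest at 34.8% of the probes higher in kidney. The called probes were chosen by the difference between the organs, and the grey set was not.

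Liver and kidney were each other's most similar tissue by the correlation of mean log2 ratios over the tested probes (Pearson 0.650). For liver, small intestine (0.543) and fat (0.539) came next, and for kidney, fat (0.625) and small intestine (0.591). By probes called, the pair was not the closest in the series, standing 12th lowest of 105 pairs of tissues with 3955, against 5166 between liver and small intestine and 4189 (19.9%) between kidney and fat. For kidney the order of its nearest 2 depended on the scale: fat was ahead of liver in Cy3 alone (0.849 against 0.833), in the deposited value table (0.907 against 0.891) and by 0.635 against 0.634 with probes above background in liver or kidney. The fat arrays differed in this respect, fat 1 correlating with the kidney arrays at 0.606 and 0.607 and fat 2 at 0.516 and 0.533. Correlations across probes share the reference and are a description.

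**Figure D4:**
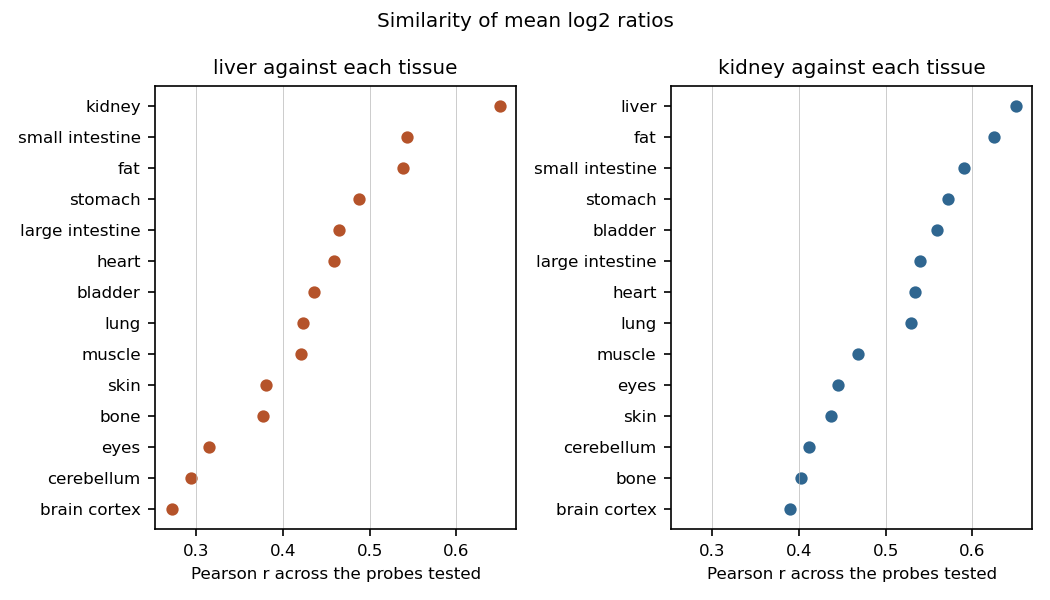
Pearson correlation of mean log2 ratios across the 21026 tested probes between liver (left) or kidney (right) and each of the other 14 tissues, in descending order. Each organ has the other at the top with 0.650, and brain cortex is at the bottom of both panels.

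The organs were also set together against the rest of the series. At 404 probes (1.92% of those tested) the lowest of the 4 liver and kidney arrays exceeded the highest of the 26 remaining arrays, and 88 of these (21.8%) were also called between the organs (18.8% of all tested), 73 higher in liver and 15 higher in kidney. The gap to the other arrays could be small: of the 98 with a symbol it was over 1 unit at 23, with a median of 0.30. With F13b and Spp2, these included Hrsp12 (now Rida), which clears reactive imines (5.39 and 5.63 against 5.48 and 5.31), Gcdh of lysine breakdown (5.58 and 5.77 against 4.79 and 4.58) and the peroxisomal reductase Pecr (3.55 and 3.48 against 3.62 and 3.46). Within this shared set 0610012H03Rik (now Them7) was higher in kidney, at 4.80 and 5.11 in liver and 6.26 and 6.09 in kidney (difference -1.22, adjusted p 0.0228 in limma).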

How the data were processed

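RNA of 15 mouse tissues, 2 arrays each, was hybridised with a common reference on 2-colour Agilent arrays of 43451 spots. Per the file headers, the deposited intensities are spot means and local background medians in scanner units from Agilent Feature Extraction, for Cy3 (tissue) and Cy5 (reference). The deposited value table was made by the authors for 25030 probes and holds log10 values. Among 11751 bright probes, it was the log10 of scanner Cy3 corrected by the deviation of Cy5 (slopes 0.998 and -0.996, R2 1.00). That deviation is from the probe's own mean Cy5 over all arrays. A level in the value table thus follows the organ's own signal, while a difference between arrays is nearly a difference of ratios to the reference. Its column medians were 2.52 on both liver arrays and 2.58 on both kidney arrays.

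Here control spots and 475 outlier spots over all arrays were left out, the intensities were background corrected (normexp, offset 50), and log2 ratios were normalised by loess within each array; loess removes any net shift against the reference at a given brightness. limma 3.58.1 in R 4.3.3 fitted 1 coefficient per tissue over all 30 arrays, and p-values were adjusted over all tested probes. Descriptions were computed in Python 3.11.15 with pandas 2.3.3. With 2 arrays per organ, p-values rest mainly on the spread pooled over tissues (15 residual degrees of freedom).

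Symbols came from the study's supplementary probe lists and covered 5622 probes of the table, of which 3480 are current in RefSeq (GRCm38.p6), 1668 are synonyms and 474 are neither. Of tested probes with a symbol, 18.5% lie on chromosome 1, so that the named genes are no even sample of the genome. By rule, the text names, in each direction, the 15 called genes that differed most and whose arrays did not overlap, the 2 probes without a symbol that differed most and up to 4 called members of each list, the organ markers and the measured relatives of named enzymes. Some of these genes are not reported here. Other names were chosen after their values were seen. The members and the lists were chosen with earlier results of these data known.

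Alternatives were other background corrections, normalisations, filters, thresholds and blocks, Cy3 alone, the value table and leaving out single arrays. Scaling between arrays used limma's scale method, since equalising average intensities alone leaves ratios as they were. Slide and organ cannot be told apart by a fixed term.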

Additional observations from a re-analysis of the deposited data

Results flagged for a closer look

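Of the array's probes outside the deposited value table, 13623 passed the same filter, and a fit over all probes of the array called 1840 of them (13.5%) between liver and kidney, 904 higher in liver and 936 higher in kidney, against 18.7% (3934) of the table's probes in that fit. They were singled out because no comparison above uses them. Their genes were not looked up here.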

How the results depend on the processing

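Of 122 results for single genes, recomputed under 21 settings, 2358 of 2535 values kept their direction and side of the threshold. Of the others, 141 fell below it, 14 rose past it and 22 turned in sign. Filters, blocks and fits with fewer other tissues left the liver and kidney values almost as they were, so direction could hardly turn there. Processed signals and the value table are nearly the same measure. Scaling between arrays, which changes the values, kept 67 of 122. Of the 99 called genes among the 122, 47 were called under every setting in which they were tested. So were 21 of the 29 reported here for their size. Of the 30 chosen by that rule, 22 were called when ratios were scaled between arrays and 15 when all 4 arrays had to be above background, where the others were not tested. The called genes that turned were Mogat1 (0.0167 on processed signals, 0.0168 in the value table) and Fmo2 (0.225 on both). Of genes not called, scaling turned F13b (-0.166), Spp2 (-0.387), Acaa1b (-0.353), Acad8 (-0.107), Aox3l1 (-0.00157) and Fmo1 (-0.126), Cy3 alone turned Spp2 (-0.214), Acot3 (0.272) and Fmo1 (-1.80), median centring turned Acad8 (-0.198), processed signals turned Acot12 (0.145) and an offset of 16 turned Acads (0.0190). Leaving out 1 array gave -0.0591 to 0.0321 for Acads, -0.599 to 0.182 for Acot12, -0.964 to 0.159 for Acot3 and -0.106 to 0.120 for Aox3l1. The causes were not tested.

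Against 3955 calls (1763 toward liver, 2192 toward kidney), scaling between arrays gave 2009 (812 and 1197), the slide as a random block 2584 (1141 and 1443), no fold threshold 6045 (2895 and 3150), a difference of at least 2 gave 1815 (810 and 1005), median centring 3872 (1059 and 2813) and all probes of the array 5774 (2658 and 3116). Leaving out 1 array gave 3437 to 3701. Same-numbered arrays did not deviate together (correlation -0.246), and the labels do not say that a number marks an animal. With the replicate block 3975 probes were called over all arrays and 4243 over the 4 arrays, and 4234 with the crossed pairing, which was chosen after seeing the data.

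By list, scaling left 5 calls in plasma proteins, 5 in fatty acid oxidation, 4 in amino acid breakdown, 4 in xenobiotic enzymes, 1 in lipid synthesis, 2 in bile and anion transporters, 6 in renin and pressure control, 2 in glomerulus, 2 in nephron regulators, 2 in liver regulators, 0 in the respiratory chain, 0 in the citric acid cycle, 4 in the secretory pathway and 1 in stroma. At an unadjusted p under 0.05 in limma, the respiratory chain then had 1 gene and the citric acid cycle 0. The slide block left 6 in renin, 2 in liver regulators, 4 in the secretory pathway, 2 in leukocytes and 3 in stroma. Requiring all 4 arrays above background left 4 in fatty acid oxidation, 5 in tubule transport, 2 in glomerulus, 2 in liver regulators, 0 in gut and muscle (Vil1 was not tested), and 2 each in the hepatocyte and nephron markers, with 4 in the citric acid cycle. Median centring gave 2 liver regulators, 10 respiratory chain and 4 citric acid cycle genes. The citric acid cycle also had 4 with the 4 arrays alone, without fat, bone and large intestine, with probes above background in either organ, with scan day, and with the replicate block over the 4 arrays, crossed or not. Leaving out 1 array gave 0 to 2 ribosomal, 2 to 4 leukocyte, 2 to 3 liver regulator and 3 to 5 respiratory chain genes. The correlation of liver with kidney, 0.650, was 0.737 under median centring, 0.833 in Cy3 alone, 0.891 in the value table, and 0.634 and 0.736 with probes above background in either organ and on all 4 arrays.

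The number of arrays and, for dim organs, signal near background limit the precision.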

Other observations

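Probes called between the organs differed in the fat arrays, which entered the pooled spread. For the 2192 probes higher in kidney, fat 1 exceeded fat 2 by a median of 0.23 and by more than 1 unit at 583 (26.6%), against a median of -0.06 and 240 probes (13.6%) for those higher in liver and 13.2% of all tested probes. Named genes with this pattern included 1700011H14Rik (7.04 in fat 1 and 0.10 in fat 2), 2610017I09Rik (5.94 and 0.01), Slc9a2 (5.20 and 0.24), Tcfap2b (5.10 and -0.05) and, on the liver side, C4bp (6.50 and -0.18). The fat arrays enter the spread and not the liver and kidney means: without the arrays of fat, bone and large intestine, 4223 probes were called and the median difference over all tested probes was again 0.03.

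Where the lower organ was not well above background, the Cy5 signal moved toward the higher organ by more than 1 unit at 67 of 292 probes higher in liver (22.9%) and at 54 of 512 higher in kidney (10.5%).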
